A study of Mus musculus with 400 samples.

Results

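The Fam19a genes (also called Tafa genes) form a family of 5 members, Fam19a1 to Fam19a5, and all 5 had a value in the deposited tables of 24754 genes. The members were taken by name, and they were described in sensory neurons of dorsal root ganglia grouped into 6 gates. The cells of a gate were chosen by their measured level of 8 other genes, so the levels of those genes are no result. All cells came from naive Nav1.8-Cre.Ai14 mice aged 6 to 12 weeks, in which Cre driven by the sodium channel gene Scn10a turns on the red protein tdTomato, so the sort takes only cells with a history of Scn10a expression. Cervical ganglia were dissociated, red cells were sorted singly, and their RNA was sequenced in 4 runs from 6 mice, called Blue and Red (run 1), Control (run 2), Control1 and Control2 (run 3) and Control6 (run 4). The mice were all of one condition, so gates of cells were compared within mice and the mouse was the replicate.

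Fam19a proteins are small secreted proteins with a conserved set of cysteines, made mainly by neurons. Several of them bind neurexins, the presynaptic adhesion proteins, and receptors have been named for single members (Gpr1 for Fam19a1, Fpr1 and Lrp1 for Fam19a4, S1pr2 for Fam19a5). Fam19a4 (TAFA4) is known in mouse as a product of C-fibre low-threshold touch neurons, which also hold tyrosine hydroxylase, and as a modulator of injury-induced pain.

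Of 394 cells with a column, 371 had at least 500 genes and were kept. The Mrgprd gate (at least 200 CPM of Mrgprd, the receptor of non-peptidergic nociceptors) held 32, 35, 18, 8, 9 and 11 cells of Blue, Red, Control, Control1, Control2 and Control6, and the Mrgpra3 gate (at least 50 CPM of this itch receptor) held 47 cells in all. The Sst or Nppb gate (at least 100 CPM of either itch peptide) held 46 cells and the Th gate (at least 100 CPM of tyrosine hydroxylase) held 39. The Calca and Tac1 gate (at least 2000 CPM of Calca, the CGRP gene, and at least 1000 CPM of Tac1, the substance P gene) held 86, and the Nefh gate (at least 500 CPM of the heavy neurofilament gene of myelinated neurons) held 26. Of the kept cells 14 were in 2 gates and 28 were in none. CPM is a gene's deposited signal with each cell scaled to a total of 1000000, without the ribosomal entry Rn45s and without entries turned into dates.

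Recovered counts per kept cell had a median of 30366 (918 to 324984), and the medians of the mice ran between 24660 and 42454. No 2 columns were identical, and all 5 neuronal markers were found in every gate; Scn10a averaged between 261 CPM in the Th gate and 988 CPM in the Mrgprd gate. Mice were unevenly spread: Blue and Red held 32 of the 39 Th gate cells, while Control held 17 of the 26 Nefh gate cells. RNA of satellite glia was highest in the Nefh gate, where its 5 markers summed to 3348 CPM against 425 to 1200 CPM in the other gates, and the Nefh gate was also the deepest, with a median of 67460 counts. Of the mural cell markers, Rgs5 averaged 612 CPM in the Th gate and 393 CPM in the Mrgpra3 gate, while Acta2 was under 1 CPM in both. The Schwann cell markers summed to 1934 CPM in the Th gate and to 259 to 1112 CPM in the other gates, of which Pmp22 made up 1500.0 CPM in the Th gate.

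The coding sequences of the members ran from 396 to 405 bases and were 59.01% to 74.61% identical over their aligned bases, Fam19a3 and Fam19a4 being the most alike. The longest stretch that this pair shared letter for letter had 17 bases, and the other pairs shared at most 16. The coding sequences were read from GENCODE vM21 (build GRCm38). Of the low values of each member 0% deviated from whole counts by more than 0.1. Fam19a1 (chr6:96113154-96657198, plus strand) and Fam19a4 (chr6:96831203-97060413, minus strand) are neighbours, 174.0 kb apart with 0 annotated genes between them. Fam19a2 lies on chromosome 10, Fam19a3 at chr3:104767406-104781840 and Fam19a5 at chr15:87544299-87759364. A longer transcript of Fam19a3 reaches into Ppm1j on the opposite strand, but their annotated exons share 0 bases, and the RefSeq models of both are 1409 bases apart. Strand use in counting was not given in the sources used here.

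The 250 bases before the RefSeq start of Fam19a3, Fam19a4 and Fam19a5 (the first of its starts) are printed because the first 2 of these genes shared the Mrgprd gate and Fam19a5 alone had counts in at least 9 cells of each gate. Capitals mark the dinucleotide CG, and the windows were matched by their RefSeq names (build GRCm38.p6): chr3:104777548-104777797, minus strand, chr6:97060412-97060661, minus strand, and chr15:87544049-87544298, plus strand.
Fam19a3: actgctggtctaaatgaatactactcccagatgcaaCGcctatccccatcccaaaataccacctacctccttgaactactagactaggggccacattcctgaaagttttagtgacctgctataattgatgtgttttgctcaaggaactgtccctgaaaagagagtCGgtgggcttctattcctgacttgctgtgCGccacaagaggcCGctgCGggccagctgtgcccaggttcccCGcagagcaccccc
Fam19a4: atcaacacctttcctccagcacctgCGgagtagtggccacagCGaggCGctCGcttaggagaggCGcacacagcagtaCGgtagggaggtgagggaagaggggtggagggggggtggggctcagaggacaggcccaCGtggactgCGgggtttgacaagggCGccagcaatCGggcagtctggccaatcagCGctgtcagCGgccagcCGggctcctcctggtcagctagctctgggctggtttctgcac
Fam19a5: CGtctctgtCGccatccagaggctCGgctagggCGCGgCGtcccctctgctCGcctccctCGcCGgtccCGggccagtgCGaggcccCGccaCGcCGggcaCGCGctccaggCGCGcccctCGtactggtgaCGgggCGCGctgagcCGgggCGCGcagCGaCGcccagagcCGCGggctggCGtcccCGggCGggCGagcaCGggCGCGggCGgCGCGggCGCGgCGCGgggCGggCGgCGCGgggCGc
The Fam19a5 window held 48 CG, a number that 0.186% of 32851 promoter windows reached, and that of its second start held 38. The Fam19a4 window held 13 (31.5% of windows held as many), and Fam19a3 and Fam19a2 held 6, the median of all windows. Fam19a1 had the fewest, 4. At least 1 CG was present in 92.1% of windows.

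**Figure D1:**
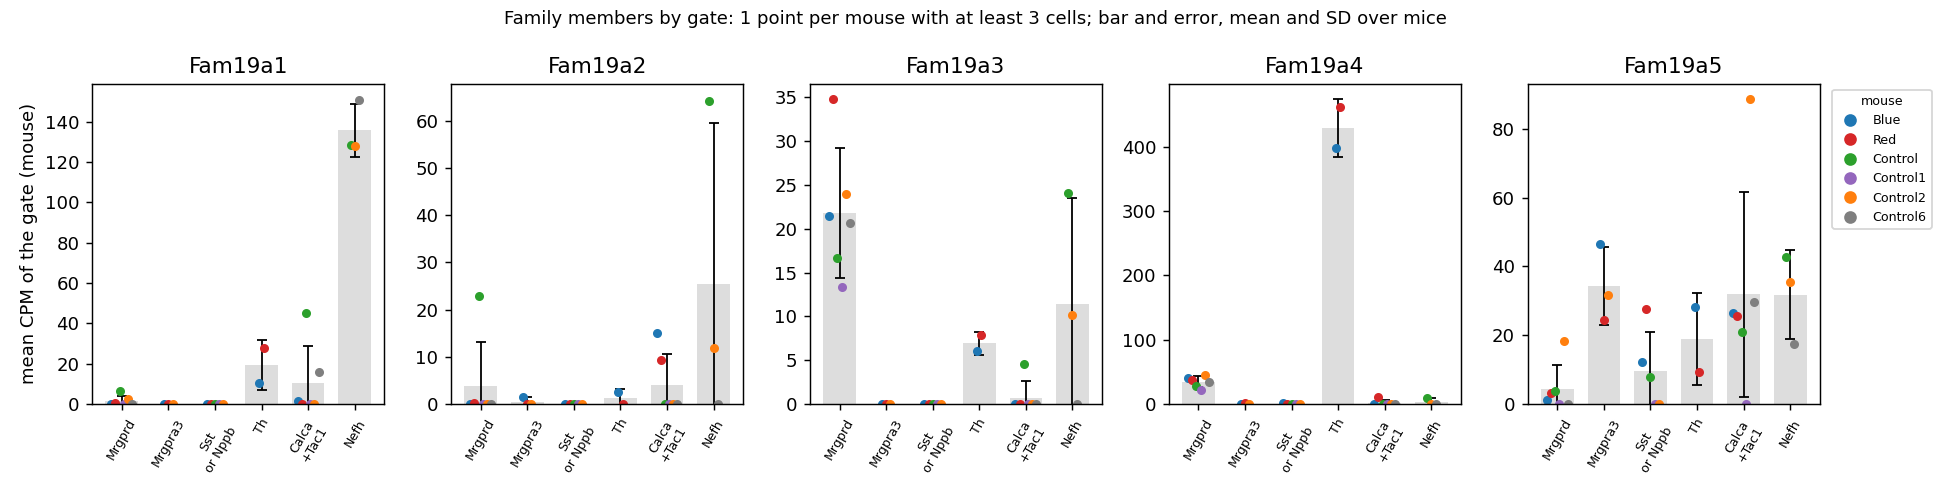
Mean CPM of each member (y axis, its own scale per panel) in the 6 gates (x axis); each point is 1 mouse with at least 3 cells in the gate, bars and error bars are the mean and SD over mice. Fam19a4 stands at 397 and 461 CPM in the Th gate, Fam19a1 at 127.99 to 150.91 CPM in the Nefh gate, Fam19a3 has its highest mean in the Mrgprd gate and Fam19a5 is spread over most gates.

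Fam19a4 was highest in the Th gate, where it averaged 429 ± 44.99 CPM (SD, n = 2 mice with at least 3 cells), and next in the Mrgprd gate with 34.8 ± 8.51 CPM (SD, n = 6). In the Th gate Blue held 397 CPM and Red 461 CPM over 16 cells each. The mice with fewer Th gate cells held 511 CPM (Control, 2 cells), 652 CPM (Control1, 1 cell), 153 CPM (Control2, 2 cells) and 688 CPM (Control6, 2 cells). Each of the 6 mice thus had Fam19a4 in the Th gate, and Control2, the lowest, had it in 1 of its 2 cells. In the Mrgprd gate the mice held 40.6 (Blue), 38.01 (Red), 28.1 (Control), 21.99 (Control1), 45.2 (Control2) and 35.1 CPM (Control6). The ranges of the Th, Mrgprd and Nefh gates did not overlap in that order, and below them the Nefh gate (3.28 CPM, from 9.85 CPM in Control and 0 CPM in Control2 and Control6), the Calca and Tac1 gate (1.78 CPM), the Mrgpra3 gate (0.688 CPM) and the Sst or Nppb gate (0.511 CPM) overlapped.

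By cells, Fam19a4 had a count in 34 of 39 Th gate cells (87.2%, exact binomial interval 72.6% to 95.7%) and in 85 Mrgprd gate cells (75.2%, 66.2% to 82.9%). It had a count in 1 of 47 Mrgpra3 gate cells, 1 of 46 Sst or Nppb gate cells and 1 of 86 Calca and Tac1 gate cells. That last cell, of Red, was also in the Th gate and held 405 CPM of Fam19a4 with counts of Slc17a8. The median depths were 32442 and 46146 counts in the Th and Mrgprd gates, against 38556, 16934 and 19859 counts in those 3 gates. With every cell thinned to 10000 counts the Th gate kept 34 of 39 cells, while the Mrgprd gate had 30 (28.04%), so the share of the Mrgprd gate moved with depth. In positive cells the level was 220 to 830 CPM in the Th gate (median 464 CPM) and 10.8 to 122.1 CPM in the Mrgprd gate (median 41.04 CPM), and these ranges did not overlap.

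**Figure D2:**
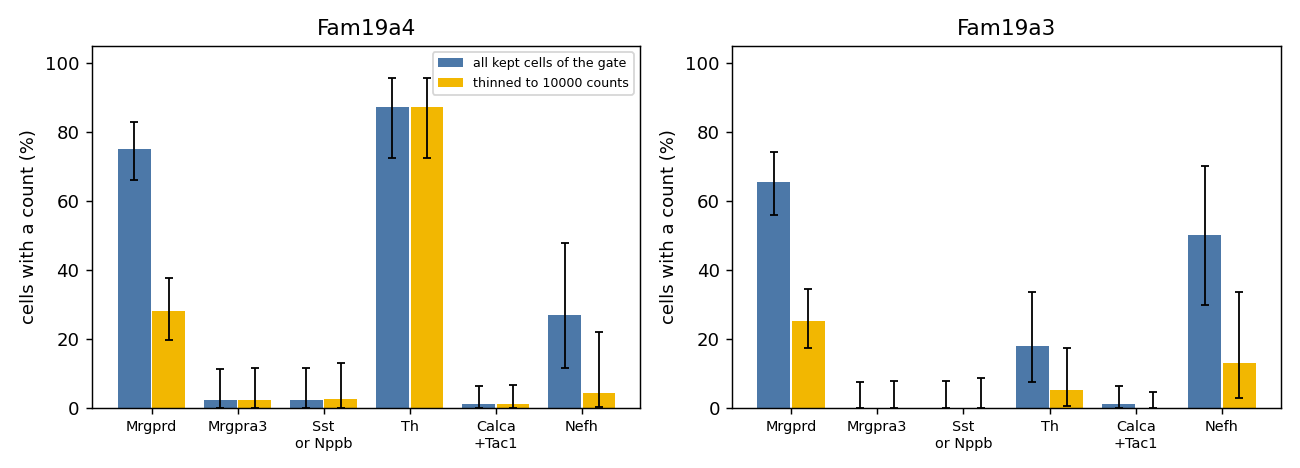
Share of cells with a count (y axis, percent) of Fam19a4 and Fam19a3 in the 6 gates (x axis), for all kept cells (blue) and for cells thinned to 10000 counts (yellow), with exact 95% binomial intervals. The Th gate keeps 87.2% for Fam19a4 after thinning, while the Mrgprd gate is at 28.04% for Fam19a4 and 25.2% for Fam19a3.

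Differences between gates were tested with limma on log2(mean CPM + 5) per mouse and side, with the mouse as a block, over every gene whose mean reached 10 CPM. Members and genes that passed only through the side where they were high had to differ, so such calls and the counts of members called are a description. Among the calls this held for Fam19a1, Fam19a3 and Fam19a5 in the Mrgprd gate comparison and for Fam19a1 in the Th and Nefh gate comparisons. It held for Fam19a4 in the Mrgpra3, Sst or Nppb, Calca and Tac1 and Nefh gate comparisons. In the Th against the Mrgprd gate it held for Fam19a3 and Fam19a5. It also held for Fam19a4 in the Mrgprd and the Calca and Tac1 gate comparisons without the Th gate cells. Calls needed a p under 0.05 after Benjamini-Hochberg adjustment over all genes tested. On the scale of log2(mean CPM + 5) changes of low genes are understated. In the Th gate against the other gated cells 28.3% of 9078 genes were called (14.3% higher and 14.1% lower), and 2 of the 3 members tested were among them. Fam19a4 held 397 CPM in Th gate cells and 13.3 CPM in the other gated cells of Blue, and 461 CPM and 13.04 CPM in those of Red. The log2 difference was 4.57 (SE 0.17, limma adjusted p = 2.37e-14, higher in 2 of 2 mice). Blue and Red came from the same run, and 2 mice with a block leave little spread of their own. The SE and p of this fit thus rest mainly on the spread that limma shares over all genes. The same holds for every Th gate fit with 2 mice. With mice of at least 2 cells admitted, the log2 difference was 4.27 over 5 mice (limma adjusted p = 3.31e-05).

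Against the Mrgprd gate alone, where 29.5% of 8841 genes were called (16.8% higher and 12.7% lower), 3 of the 3 members tested passed. Fam19a4 was higher in the Th gate by 3.29 on the log2 scale (SE 0.16, limma adjusted p = 3.28e-18, 2 of 2 mice). The SE and p values of this comparison also rest mainly on the spread shared over all genes, not on spread between these 2 mice. Fam19a3 was lower in the Th gate, with 6.95 ± 1.30 CPM against 28.1 ± 9.37 CPM in the Mrgprd gate of the same 2 mice (SD; log2 difference -1.45, SE 0.34, limma adjusted p = 0.00107). Fam19a5 was higher, with 18.8 ± 13.4 CPM in the Th gate against 2.21 ± 1.47 CPM in the Mrgprd gate (log2 difference 1.62, SE 0.43, limma adjusted p = 0.00399). Single cells weighed on this level: over all mice the highest Th gate cell held 380.5 CPM, against a median of 25.3 CPM in the 14 positive cells. In the 8 Th gate cells with at least 1000 CPM of the satellite glial marker Apoe, Fam19a5 averaged 64.6 CPM, against 7.69 CPM in the other 31. The part of these cells in the difference was not tested. Both Fam19a3 and Fam19a5 were no longer called with mice of at least 2 cells admitted (limma adjusted p = 0.364 and 0.197). All of these comparisons draw on the same cells of a few mice and are not independent of each other.

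Fam19a4 was lower in each gate but the Th gate than in the other gated cells, which include the Th gate. The Mrgprd gate is taken up last, since its direction was not stable. It averaged 0.688 CPM in the Mrgpra3 gate against 67.8 CPM (log2 difference -3.63, limma adjusted p = 0.00833, 3 of 3 mice), where 3.45% of genes were called, 1.41% higher and 2.04% lower. In the Sst or Nppb gate it averaged 0.511 CPM against 60.01 CPM (-3.53, limma adjusted p = 0.000169, 5 of 5 mice), with 12.3% of genes called, 3.47% higher and 8.88% lower. The Calca and Tac1 gate had 1.78 CPM against 70.6 CPM (-3.56, limma adjusted p = 1.62e-05, 6 of 6 mice), also with 12.3% called, 5.44% higher and 6.85% lower. The Nefh gate had 3.28 CPM against 61.2 CPM (-3.14, limma adjusted p = 0.000793, 3 of 3 mice), with 9.32% called, 4.55% higher and 4.77% lower. With the Th gate cells left out of the comparison cells, the Calca and Tac1 gate was still lower (-2.01, limma adjusted p = 0.00371), the Nefh gate was not called (-1.86, limma adjusted p = 0.0663), and in the Mrgpra3 and Sst or Nppb comparisons Fam19a4 fell under the filter on low values. In the Calca and Tac1 comparison Fam19a4 then passed the filter only through the comparison cells, so that call is a description.

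The Mrgprd gate had a level between those of the Th gate and of the other gates, and its direction for Fam19a4 depended on the comparison cells. Against all other gated cells it was lower in 5 of 6 mice, with 34.8 ± 8.51 CPM against 68.6 ± 31.4 CPM (SD, n = 6; log2 difference -0.79, SE 0.25, limma adjusted p = 0.0362). Control2 was the exception, with 45.2 CPM in the Mrgprd gate against 25.4 CPM. Without the Th gate cells among the comparison cells the Mrgprd gate was higher by 2.76 on the log2 scale (SE 0.29, limma adjusted p = 3.85e-06), and with means of log values over cells it was higher by 1.35 (limma adjusted p = 0.000116). The gates left in the first of these fits averaged 0.511 to 3.28 CPM. Fam19a4 thus passed the filter there only through the Mrgprd gate, and the difference of 2.76 is a description. Leaving out Blue, Red, Control, Control1 or Control6 in turn ended the first call (limma adjusted p = 0.0536 to 0.145 in those 5 fits).

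**Figure D3:**
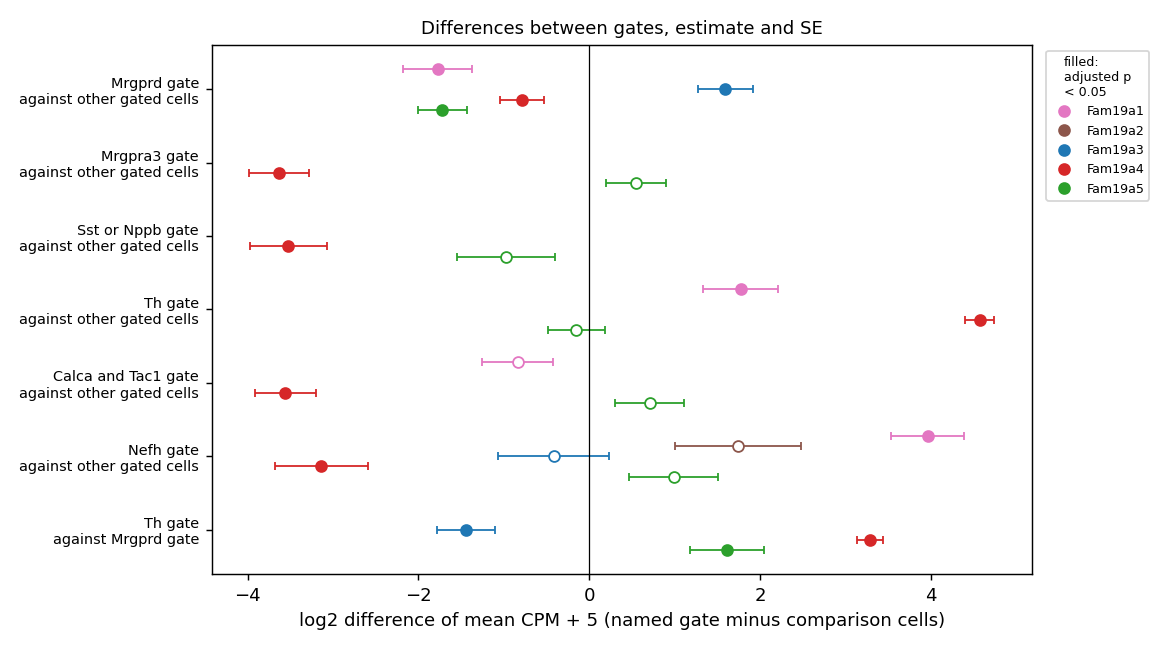
Log2 difference of mean CPM + 5 (x axis, named gate minus comparison cells) with its SE for each member that passed the filter on low values in 7 comparisons (y axis); filled points have a limma adjusted p under 0.05. Fam19a4 is at 4.57 in the Th gate and between -3.63 and -3.14 in 4 other gates, and Fam19a1 is at 3.97 in the Nefh gate.

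Within the Th gate, Fam19a4 separated 34 cells from 5. All 34 cells with Fam19a4 also had counts of Slc17a8 (the vesicular glutamate transporter VGLUT3), P2ry1 (a purine receptor) and Cckar (a cholecystokinin receptor), genes of C-fibre touch neurons, and 0 of the 34 had Mrgprd. Of the 5 cells without Fam19a4, 0 had Slc17a8 or Cckar and 3 had P2ry1. Those 5 averaged 7703 CPM of Calca, 541 CPM of Nefh and 1681 CPM of Apoe, against 94.5, 66.4 and 405 CPM in the 34, and they were deeper, with a median of 47919 counts against 31958. The 5 cells were mixed, with 229 to 685 CPM of Th and 0 to 12760 CPM of Calca, and 3 of them were also in the Nefh gate. Just inside the threshold, at 100 to 200 CPM of Th, 4 of 4 cells had Fam19a4 (516 CPM), and just outside, at 50 to 100 CPM, 2 of 8 did (132 CPM).

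Outside all gates, 15 of 28 cells had Fam19a4, at a mean of 403 CPM in the 15. Of these, 13 had P2ry1 (396 CPM), 10 had Slc17a8 (110 CPM), 8 had Cckar (106.8 CPM) and 4 had Th, which averaged 15.1 CPM. In the 13 ungated cells without Fam19a4, 3 had P2ry1, 1 had Slc17a8 and 0 had Cckar, while Calca averaged 3085 CPM against 19.6 CPM in the 15.

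**Figure D4:**
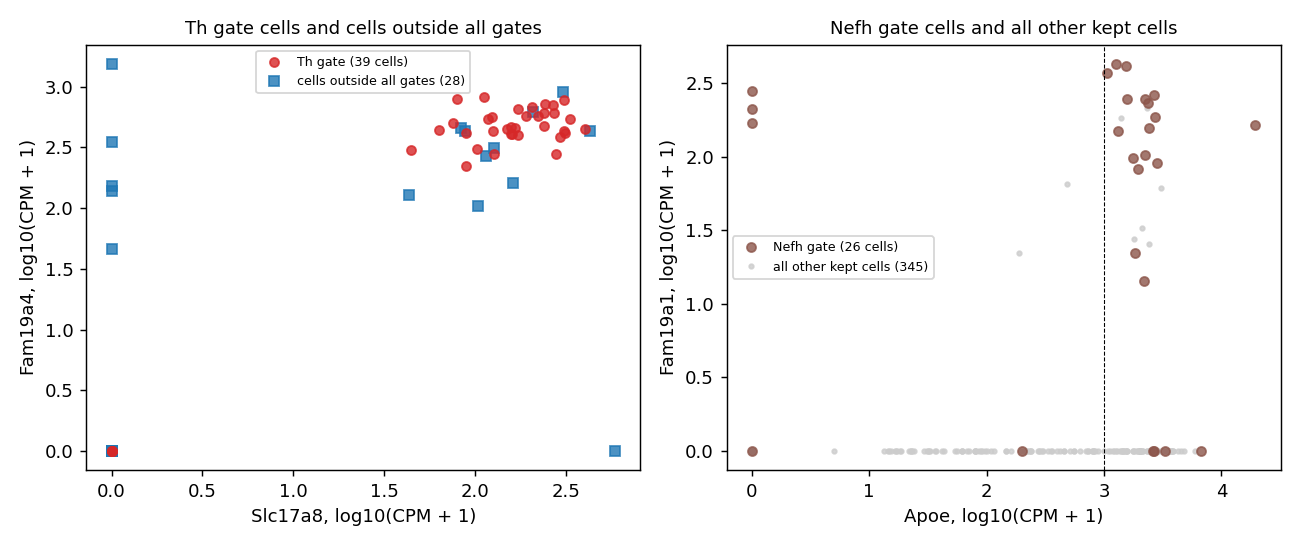
Single cells on log10(CPM + 1) axes: left, Fam19a4 (y) against Slc17a8 (x) in the 39 Th gate cells (red) and the 28 cells outside all gates (blue); right, Fam19a1 (y) against Apoe (x) in the 26 Nefh gate cells (brown) and the 345 other kept cells (grey), with the dashed line at 1000 CPM of Apoe. On the left 34 Th gate cells sit together and the 5 without Fam19a4 lie at 0 on both axes; on the right Fam19a1 is present in 20 of 26 Nefh gate cells on both sides of the line.

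Fam19a3 had its highest mean in the Mrgprd gate, at 21.8 ± 7.38 CPM (SD, n = 6), and was at 0 in all 47 Mrgpra3 and all 46 Sst or Nppb gate cells. By exact binomial intervals this allows shares of up to 7.55% and 7.71% of cells with a count. The mice held 21.5 (Blue), 34.8 (Red), 16.6 (Control), 13.4 (Control1), 23.98 (Control2) and 20.6 CPM (Control6) in the Mrgprd gate, against 1.14, 1.46, 13.7, 0, 2.55 and 9.75 CPM in the other gated cells of the same mice. Every mouse was higher in the Mrgprd gate, by the least in Control. The log2 difference was 1.59 (SE 0.32, limma adjusted p = 0.00181, 6 of 6 mice), and 4 of the 4 members tested were called in this comparison, in which 23.1% of 9079 genes were called, 10.2% higher and 12.9% lower. Fam19a3 passed the filter on low values only through the Mrgprd gate, so its call is a description. In the mice of runs 2 to 4 alone the difference was 1.21 and was not called (limma adjusted p = 0.0838).

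The Nefh gate was next for Fam19a3, at 24.1 CPM in Control, 10.2 CPM in Control2 and 0 CPM in Control6, followed by the Th gate at 6.03 CPM in Blue and 7.87 CPM in Red. The ranges of the Mrgprd and Nefh gates overlapped, and in Control the Nefh gate was above the Mrgprd gate. With doubled gate thresholds or with cells in exactly 1 gate the Nefh gate had the highest mean of Fam19a3 (23.6 and 24.96 CPM), so which of the 2 gates was higher was not settled. Overlap was also seen between the Nefh and Th gates. The Calca and Tac1 gate had a count in 1 of 86 cells. No difference was called for Fam19a3 in the Nefh gate against other gated cells (log2 difference -0.42, SE 0.65, limma adjusted p = 0.789).

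Fam19a3 had a count in 74 single cells of the Mrgprd gate (65.5%, 55.96% to 74.2%) and in 27 after thinning (25.2%). Both Fam19a3 and Fam19a4 were counted in 62 cells, Fam19a3 alone in 12, Fam19a4 alone in 23 and neither in 16. Depth moved with this split: the median was 50465 counts in cells with both, 43092 and 44170 counts in cells with Fam19a3 or Fam19a4 alone and 27519 counts in cells with neither, and the part of depth in the split was not tested. Cells just inside the gate, with 200 to 400 CPM of Mrgprd, had Fam19a3 in 4 of 10 and Fam19a4 in 2 of 10, and the single cell with 100 to 200 CPM had both.

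Fam19a1 had its highest mean in the Nefh gate, at 136 ± 13.1 CPM (SD, n = 3), with 128.44 CPM in Control (17 cells), 127.99 CPM in Control2 (3 cells) and 151 CPM in Control6 (3 cells). The 2 Nefh gate cells of Blue averaged 221 CPM and the 1 cell of Red had 424 CPM. The other gated cells of Control, Control2 and Control6 held 6.97, 1.17 and 4.80 CPM, far below the gate in each mouse. The log2 difference was 3.97 (SE 0.43, limma adjusted p = 5.16e-06, 3 of 3 mice), and 2 of the 5 members tested in this comparison were called, Fam19a4 being the other. Of 9248 genes tested 9.32% were called. Each of the 2 members passed the filter on low values only through its high side, so these calls are a description. Next in order for Fam19a1 came the Th gate (19.2 CPM), the Calca and Tac1 gate (10.5 CPM) and the Mrgprd gate (1.61 CPM), which overlapped. Fam19a1 was at 0 in the Mrgpra3 gate of the 3 mice with at least 3 cells and in all 46 Sst or Nppb gate cells.

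Of the 28 cells with Fam19a1, 20 were in the Nefh gate, where it had a count in 20 of 26 cells (76.9%, 56.4% to 91.03%) and in 14 of 23 after thinning. Just inside the gate, at 500 to 1000 CPM of Nefh, 8 of 12 cells had it (163 CPM), and just outside, at 250 to 500 CPM, 3 of 26 did (17.6 CPM). Satellite glial RNA moved with this gate, since 21 of its 26 cells had at least 1000 CPM of Apoe, the leading glial marker. Fam19a1 averaged 154 CPM in those 21 cells (17 with a count) and 130 CPM in the other 5 (3 with a count). Outside the Nefh gate it averaged 8.77 CPM in 61 cells with at least 1000 CPM of Apoe and 0.301 CPM in 284 cells with less. No mouse kept 3 Nefh gate cells without the Apoe-high cells, so the difference could not be fitted there.

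The Nefh gate held 15 cells with at least 2000 CPM of Calca and 11 with less. Fam19a1 averaged 197 CPM in the Calca-high cells and 84.4 CPM in the others, with counts in 12 of 15 and 8 of 11. Fam19a2 ran the other way, with 8.69 CPM (5 of 15 cells) and 94.4 CPM (8 of 11 cells). The Calca-low cells were deeper, at a median of 114020 counts against 58062, and all 11 came from Control, while the Calca-high cells came from 5 mice, so the split cannot be told apart from the mouse across all cells. Within Control the 6 Calca-high cells averaged 209 CPM of Fam19a1 and 8.81 CPM of Fam19a2 (5 and 3 with a count), against 84.4 and 94.4 CPM in the 11, at a median depth of 81021 counts against 114020. Neither difference was tested over mice. A comparison of the Nefh gate with the Calca and Tac1 gate had fewer than 2 mice with at least 3 cells on each side and has no main value.

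The call of Fam19a1 in the Th gate rested on cells shared with the Nefh gate. It averaged 19.2 ± 12.4 CPM in the Th gate against 1.79 ± 2.17 CPM in the other gated cells of Blue and Red (SD, n = 2; log2 difference 1.77, SE 0.44, limma adjusted p = 0.00352). The 3 cells in both the Th and the Nefh gates all had Fam19a1, at a mean of 273 CPM, and 0 of them had Fam19a4. The cells of Blue (166.9 CPM) and Red (424.2 CPM) entered this fit, while that of Control2 did not. In all, Fam19a1 had a count in 1 Th gate cell of Blue and 2 of Red. Of the 36 other Th gate cells 1 had Fam19a1 (0.679 CPM over the 36). With mice of at least 2 cells admitted the difference was 0.07 (limma adjusted p = 0.978). Fam19a1 was lower in the Mrgprd gate, at 1.61 ± 2.60 CPM against 29.8 ± 34.4 CPM (SD, n = 6; log2 difference -1.78, SE 0.41, limma adjusted p = 0.00453, 5 of 6 mice). The comparison cells included the Nefh gate cells, whose part in this difference was not tested. Among the gates, the range of the Mrgprd gate overlapped that of the Calca and Tac1 gate. The Mrgpra3 and Sst or Nppb gates had a mean of 0 CPM over mice with at least 3 cells. This value lies within the range of the Mrgprd gate (0 to 6.59 CPM).

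Fam19a2 had counts in 27 cells, 13 of them in the Nefh gate and 11 in the Calca and Tac1 gate. In the Nefh gate it was at 64.2 CPM in Control, 11.9 CPM in Control2 and 0 CPM in Control6, against 0.431 ± 0.746 CPM in the other gated cells (SD, n = 3). This spread exceeded the difference, and limma gave a log2 difference of 1.74 (SE 0.74, adjusted p = 0.172), while edgeR and DESeq2 on recovered counts called it (adjusted p = 0.000425 and 0.00454). In the Calca and Tac1 gate it was at 15.02 CPM in Blue and 9.43 CPM in Red and at 0 in the 15 cells of the other 4 mice. It was at 0 in all 46 Sst or Nppb gate cells. The member passed the filter on low values in the Nefh comparison only. Of the Mrgprd gate cells, 2 of the 3 that were also in the Nefh gate had it (126.3 CPM), against 2 of all the others (0.404 CPM).

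Fam19a5 had counts in at least 9 cells of every gate, and its order of levels was not resolved, since all neighbouring gates overlapped. It averaged 34.3 ± 11.2 CPM in the Mrgpra3 gate (n = 3), 31.9 ± 29.7 CPM in the Calca and Tac1 gate (n = 6) and 31.8 ± 12.99 CPM in the Nefh gate (n = 3, SD throughout). Lower means were found in the Th gate (18.8 CPM), the Sst or Nppb gate (9.57 CPM) and the Mrgprd gate (4.46 CPM). The Mrgprd gate of each mouse held 1.17 (Blue), 3.25 (Red), 3.97 (Control), 0 (Control1), 18.3 (Control2) and 0 CPM (Control6). Against 25.3 ± 14.7 CPM in the other gated cells this was lower in 6 of 6 mice (log2 difference -1.72, SE 0.29, limma adjusted p = 0.000351), and it was not called after thinning (-1.54, limma adjusted p = 0.0649).

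No other gate differed from the other gated cells in Fam19a5 by the main test. The log2 differences were 0.55 (SE 0.35) in the Mrgpra3 gate, -0.97 (SE 0.57) in the Sst or Nppb gate, -0.15 (SE 0.34) in the Th gate, 0.71 (SE 0.40) in the Calca and Tac1 gate and 0.99 (SE 0.52) in the Nefh gate, with limma adjusted p between 0.291 and 0.79. The Mrgpra3 gate was called by edgeR (1.59, adjusted p = 0.00202), by DESeq2 (1.44, adjusted p = 0.041) and in run 1 alone (0.89, limma adjusted p = 0.00181). Mrgpra3 itself is an uncertain gate gene, as 26.8% of its low values were not whole counts and it has close paralogs. Fam19a5 had a count in 27 of 47 Mrgpra3 gate cells (57.4%), 35 of 86 Calca and Tac1 gate cells (40.7%), 20 of 26 Nefh gate cells (76.9%) and 12 Mrgprd gate cells (10.6%). After thinning these shares were 26.1%, 25.9%, 17.4% and 0.935%.

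Satellite glial RNA also moved with Fam19a5. Outside the Nefh gate 38 of 61 cells with at least 1000 CPM of Apoe had Fam19a5 (62.3%, 38.8 CPM), against 61 of 284 cells with less Apoe (21.5%, 15.4 CPM), at median depths of 25918 and 29703 counts. The part of glial RNA in the level of Fam19a5 was not tested.

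Of the 371 kept cells 141 had 1 of the 5 members, 93 had 2, 12 had 3, 5 had 4, 5 had all 5 and the rest had none. The 5 cells with all members were in the Nefh gate, at a median depth of 160010 counts. A pair of members was counted in 60 Mrgprd gate cells (53.1%) and 16 Th gate cells (41.03%), and in the Sst or Nppb gate 36 of 46 had none. No doublet caller was run, and the part of double cells in the counts of members per cell was not tested.

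The genes most like each member were taken by Pearson r of log2(mean CPM + 5) over 25 mouse-by-gate means among 7174 genes, points that share mice and libraries. Fam19a4 was most like Gfra2 (r = 0.89), the neurturin receptor of non-peptidergic and C-fibre touch neurons, followed by Magi1 (0.87), Zfp703 (0.85) and Phf24 (0.83). Gfra2 averaged 797 CPM in the Th gate, 593 CPM in the Mrgprd gate and at most 28.7 CPM in the others. Fam19a3 was most like Ppm1j (r = 0.92), its neighbour on the opposite strand, then Prmt8 (0.89), Tmem35a (0.88), Kcnab1 (0.88) and Cdh11 (0.88). Ppm1j, a protein phosphatase gene, had a count in 91 of the 93 cells with Fam19a3 and in 171 cells in all, and in all 74 Mrgprd gate cells with Fam19a3. Nearly all Mrgprd gate cells had Ppm1j, with or without Fam19a3, so its presence in these 74 cells was not particular to Fam19a3. A link between both genes within single cells was not tested. Fam19a1 was most like S100a16 (0.93), Sema5a (0.88), Cpne6 (0.87), Fgf12 (0.85) and Tm9sf2 (0.83). The likeness was weaker for Fam19a5, led by Ckb (0.77), Uqcc2 (0.75), Cd151 (0.73), Ptprn2 (0.72) and Tuba4a (0.71). Fam19a2 was led by Pcdha5 (0.61), of whose low values 85.1% were not whole counts, then Cntnap1 (0.60), Cplx2 (0.60), Dexi (0.58) and Myh10 (0.57). Between members r was at most 0.63, for Fam19a3 and Fam19a4.

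The binding partners and receptors were read from a list of 8 genes, of which 4 or 5 passed the filter in each comparison, the neurexin genes Nrxn2 and Nrxn3 among them. Fpr1 was at 0 on both sides of every comparison. For the Mrgprd gate 0 rose and 3 of 4 fell, with a list median of -0.32 against -0.04 over all genes tested. Of all genes tested, 10.2% were called higher and 12.9% lower in this gate. Nrxn3 averaged 82.4 ± 46.7 CPM in the Mrgprd gate and 197 ± 49.3 CPM in the other gated cells (SD, n = 6; log2 difference -1.31, limma adjusted p = 7.13e-05, 6 of 6 mice). Nrxn2 (-0.35, limma adjusted p = 0.0178) was lower in 5 of 6 mice.

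In the Sst or Nppb gate 2 of 5 partner genes rose and 0 fell, with a median of 0.65 against -0.21 over all genes. Of all genes tested, 3.47% were called higher and 8.88% lower in this gate. Nrxn3 averaged 320.4 ± 106.4 CPM there against 119.4 ± 50.8 CPM (SD, n = 5; log2 difference 1.42, limma adjusted p = 0.000772), and Nrxn2 had a difference of 0.64 (limma adjusted p = 0.0168), each higher in 5 of 5 mice. Of 4 partner genes in the Th gate 1 rose and 1 fell, and Nrxn3 was the one that rose (0.57, limma adjusted p = 0.00302, 2 of 2 mice). In the Nefh gate Nrxn3 was the 1 of 4 that rose (1.05, limma adjusted p = 0.0157, 3 of 3 mice), and in the Calca and Tac1 gate 1 of 4 rose. None of 5 passed in the Mrgpra3 gate. The shares of all genes called higher and lower were 14.3% and 14.1% in the Th gate and 4.55% and 4.77% in the Nefh gate. They were 5.44% and 6.85% in the Calca and Tac1 gate and 1.41% and 2.04% in the Mrgpra3 gate. The list medians were -0.46 in the Mrgpra3 gate, -0.10 in the Th gate, 0.14 in the Calca and Tac1 gate and 0.10 in the Nefh gate, against -0.07, 0.02, -0.08 and -0.05 over all genes tested.

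Of all genes tested, 14.3% were called higher and 14.1% lower in the Th gate, and 10.2% and 12.9% in the Mrgprd gate. These shares were 4.55% and 4.77% in the Nefh gate and 1.41% and 2.04% in the Mrgpra3 gate. They were 5.44% and 6.85% in the Calca and Tac1 gate, 3.47% and 8.88% in the Sst or Nppb gate and 16.8% and 12.7% in the Th against the Mrgprd gate. Other secreted or membrane ligands of neurexins formed a list of 17 genes, of which 4 to 7 passed the filter. Several passed only through the side where they were high, as Cbln2, Nxph3 and Clstn3 did in both Th gate comparisons, so the counts and medians of this list are a description and support nothing. In the Th gate 3 of 7 rose and 0 fell: Cbln2, a cerebellin, with 21.4 ± 14.8 CPM against 0 CPM (limma adjusted p = 0.000269; its fitted difference depends on the pseudocount), Nxph3, a neurexophilin, with 40.6 ± 1.05 CPM against 4.54 ± 0.138 CPM (2.26, limma adjusted p = 1.17e-05), and Clstn3, a calsyntenin, with a difference of 1.19 (limma adjusted p = 0.0122), all SD over n = 2 mice. Among the same ligands 1 of 4 rose in the Mrgprd gate, Lrrtm3, with 30.2 ± 10.5 CPM against 3.94 ± 3.73 CPM (2.04, limma adjusted p = 0.000174, 6 of 6 mice). Clstn3 was the 1 of 6 that rose in the Nefh gate (1.97, limma adjusted p = 0.0224). Lrrtm2 was the 1 of 4 that fell in the Mrgpra3 gate (-1.66, limma adjusted p = 0.0381), and Nlgn3, a neuroligin, the 1 of 6 that fell in the Calca and Tac1 gate (-1.53, limma adjusted p = 0.0365). In the Sst or Nppb gate 0 of 4 passed, where limma had an unadjusted p under 0.05 for 2353 of 9022 genes in all. The ligand medians were 0.33 in the Mrgprd gate, 0.10 in the Mrgpra3 gate, -0.44 in the Sst or Nppb gate, 0.46 in the Th gate, -0.50 in the Calca and Tac1 gate and 0.14 in the Nefh gate. In the Th gate against the Mrgprd gate 1 of 4 partners rose, Nrxn3, with 174 ± 12.1 CPM against 70.7 ± 5.94 CPM (1.24, limma adjusted p = 2.02e-07, list median 0.10 against 0.06 over all genes). Of 7 ligands in that comparison Nxph3, Clstn3 and Cbln2 rose (limma adjusted p = 2.96e-08, 1.24e-05 and 0.000116) and Lrrtm3 fell (-1.01, limma adjusted p = 0.0137), with a list median of 0.21.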

How the data were processed

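Per the labels' protocols, single tdTomato-positive neurons were sorted and sequenced; per the submitters' processing notes, reads were aligned with STAR 2.7.3a to mm10. The deposited tables of the authors hold a signal per gene and cell, a count times a factor of the cell; the sources used here do not say how that factor was derived. Whole reads are claimed (low values within 0.1 of a whole number) for 252 of 394 columns and not for the other 142; depths, thinned shares and the count tests also rest on those 142 columns, and in kept cells at least 93.15% of low values were whole. Of 24781 entries, 26 were dates (0.154% of signal) and Rn45s took 7.10%; both were left out. Cells with at least 500 genes were kept (23 were not). Mean CPM per mouse and gate (at least 3 cells) was tested with limma 3.58.1 in R 4.3.3, mouse as a block because both sides come from the same animal, pseudocount 5; alternatives used edgeR 4.0.16 and DESeq2 1.42.0 on recovered counts rounded to whole numbers. Fits were tested on simulated data in the layout of the Mrgprd gate comparison (6 mice) only, so fits with fewer mice were not covered. Figures, sequences and shares used Python 3.11.15, Biopython 1.88 and matplotlib 3.10.9. Intervals cover counting error only. Members, gates and lists were chosen with earlier results of these data known. Named genes were the members, the gate genes, up to 3 called genes per list and comparison, and the 5 genes (mean of at least 20 CPM) most like each member; P2ry1, Slc17a8, Cckar, Gfra2, Rgs5, Acta2, Pmp22 and Apoe are fixed markers or such genes, and the splits by Calca and by Fam19a4 were chosen after their values were seen. Some genes and sequences that these rules select are not reported here.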

Additional observations from a re-analysis of the deposited data

Results flagged for a closer look

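Among 12 sets of 4 to 6 mice, 8 had a mouse far from the others. The chance rate of about 1 in 20 sets holds for normally spread values only. Many of these sets were at or near 0 CPM in most mice, and 3 of the sets below were at 0 in all other mice. There 1 mouse with counts stands apart by construction, so the 8 sets are a description. Mouse Control stood apart in 4 of them: Fam19a1 at 6.59 CPM and Fam19a2 at 22.9 CPM in the Mrgprd gate, and Fam19a1 at 45.3 CPM and Fam19a3 at 4.54 CPM in the Calca and Tac1 gate. Fam19a4 stood apart at 2.55 CPM in the Sst or Nppb gate of Blue and at 10.7 CPM in the Calca and Tac1 gate of Red, each from 1 cell; the cell of Red was also in the Th gate. Fam19a5 stood apart in Control2, at 18.3 CPM in the Mrgprd gate and 88.5 CPM in the Calca and Tac1 gate. Cells outside all gates, which enter none of the main comparisons, averaged 216 CPM of Fam19a4 over 28 cells.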

How the results depend on the processing

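The number of members called changed most with these settings. In the main fits the share of all genes called was 23.1% for the Mrgprd gate, 3.45% for the Mrgpra3 gate and 12.3% for the Sst or Nppb gate. It was 28.3% for the Th gate, 12.3% for the Calca and Tac1 gate, 9.32% for the Nefh gate and 29.5% for the Th against the Mrgprd gate. The shares under the other settings are not given, so the counts below are a description. In the Mrgprd gate 4 members became 2 with no filter on low values, with cells thinned to 10000 counts, without cells of at least 1000 CPM Apoe and in runs 2 to 4 only, and 2 to 4 when each mouse was left out (2 without Control). In the Mrgpra3 gate 1 became 2 with cells in exactly 1 gate, in run 1 only, by edgeR and by DESeq2, and 0 with thinning and with the Th gate cells left out; leaving out a mouse gave 1 to 2 (2 without Control2). In the Sst or Nppb gate 1 became 2 with no filter and 0 without the Th gate cells. In the Th gate 2 became 1 with means of log values, halved thresholds, cells in exactly 1 gate, thinning, no Apoe-high cells, DESeq2 and mice of at least 2 cells. In the Calca and Tac1 gate 1 became 2 with no filter. In the Nefh gate 2 became 1 with no filter, halved thresholds, thinning and without the Th gate cells, and 4 by edgeR. In the Th gate against the Mrgprd gate 3 became 1 by DESeq2 and with mice of at least 2 cells. The gate with the highest mean was kept by 3 of 5 members with doubled thresholds and with cells in exactly 1 gate (Fam19a3 and Fam19a5 were then highest in the Nefh gate) and without Apoe-high cells (Fam19a1 and Fam19a2 changed, as no mouse kept 3 Nefh gate cells), and by 4 to 5 when a mouse was left out. The direction turned for Fam19a4 in the Mrgprd gate (1.35 with means of log values, 2.76 without the Th gate cells), for Fam19a5 in the Mrgpra3 gate (-0.10 with mice of at least 2 cells), for Fam19a3 in the Nefh gate (0.046 with means of log values, 0.15 by edgeR, and -0.54 to 0.45 when a mouse was left out, the highest without Control6) and for Fam19a5 in the Nefh gate (-0.0087 with halved thresholds, -0.33 with thinning); the cause was not tested. The fit without the replicate block, which gives up the pairing of both sides by animal, changed no count of members called by over 1.5 times. Admitting mice with 2 cells and leaving out Th gate cells were chosen after seeing the data. Leaving a mouse out of the Th gate, runs 2 to 4 for the Mrgpra3 and Th gates, and doubled thresholds, cells in exactly 1 gate, no Apoe-high cells or run 1 only for the Nefh gate left too few mice to be fitted.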
